A study of Homo sapiens with 5 samples.

Results

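The microRNAs described here are miR-150 and the miR-181 family, which are known for high levels in lymphoid cells. Probes for human miRNAs were taken if their name was miR-150, miR-181a, miR-181b, miR-181c or miR-181d, alone or joined, with star forms left out. The rule took 4 of 654 human probes: hsa-miR-150, hsa-miR-181a, hsa-miR-181c and 1 probe that reads miR-181b and miR-181d together. No star-form probe of their hairpins was among the human probes.

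Total RNA from 5 human hematopoietic cell lines was counted on the nCounter system, which reads tagged molecules without amplification. Each line gave 1 sample of Trizol-extracted RNA, with an input of 100 ng, and no treatment was named. Jurkat is a T-cell leukemia line and Raji is a B-cell line from a Burkitt lymphoma. Meg-01 is a megakaryoblastic line, U937 is a monocytic line and K562 is a line with erythroid features. Meg-01 and K562 both derive from chronic myeloid leukemia. All 5 lines are transformed, long-cultured cells, and each stands for its lineage only within that limit. The summed count of the human probes was 130048 in Jurkat, 66892 in Raji, 109731 in Meg-01, 94027 in U937 and 105224 in K562. That sum was lowest in Raji, while the summed count of the positive controls was lowest in U937, at 19329 against 22360 in Raji.

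A miRNA guides a silencing complex to messenger RNAs that pair with its seed, bases 2 to 8 of the mature strand. miR-150 is abundant in mature lymphocytes, where it represses the transcription factor MYB. miR-181a is high in developing thymocytes, where it lowers several phosphatases and raises the sensitivity of T-cell receptor signaling. The family members miR-181b, miR-181c and miR-181d are encoded beside miR-181a or in a separate cluster and carry the same seed.

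The mature sequences of the miR-181 family show what the probes had to tell apart. They are given 5′ to 3′ from RefSeq on build GRCh38.p14, with the seed in capitals.
miR-181a: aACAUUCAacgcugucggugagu
miR-181b: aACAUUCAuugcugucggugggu
miR-181c: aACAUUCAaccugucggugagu
miR-181d: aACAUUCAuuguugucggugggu
All 4 share the seed. Counted from 1 at the 5′ end of the strand named first, miR-181b and miR-181d differ by the single substitution C12U, and 1 probe reads both. miR-181a and miR-181b differ by A9U, C10U and A21G. miR-181a has 23 bases and miR-181c has 22, and 1 edit separates them. The table holds 1 other miRNA with this seed, miR-4262, which has no probe of that name on the panel.

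miR-181a and miR-181b are each encoded at a pair of loci. On chromosome 1, minus strand, miR-181a lies at chr1:198859108-198859130 and miR-181b at chr1:198858925-198858947, within the gene MIR181A1HG. On chromosome 9, plus strand, they lie at chr9:124692480-124692502 and chr9:124693725-124693747, where MIR181A2HG and NR6A1 overlap them. miR-181c at chr19:13874725-13874746 and miR-181d at chr19:13874910-13874932 lie on the plus strand and overlap NANOS3. These overlaps are with gene spans, and exons were not read. Because the mature strands from both loci are identical, a count of miR-181a does not tell which locus it came from.

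miR-150 was measured above background in the T line and in no other line, the B line included. Its raw count was 1030 in Jurkat (95% Poisson interval 968 to 1095), 21 in Raji (13.0 to 32.1), 13 in Meg-01 (6.92 to 22.2), 18 in U937 (10.7 to 28.4) and 20 in K562 (12.2 to 30.9). The background threshold of each line, the mean plus 2 SD of its 8 negative control probes, stood at 35.0 raw counts in Jurkat, 45.9 in Raji, 42.1 in Meg-01, 34.9 in U937 and 34.6 in K562. The counts outside Jurkat lay near or below the means of the negative controls, which were 20.4 in Meg-01, 23.1 in Raji, 20.9 in U937 and 20.3 in K562. Intervals cover counting error only. With 1 sample per line there was no replicate check and no test between lines. The RNA is from bulk cultures, so fewer cells with a miRNA and less of it per cell cannot be told apart.

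For comparison between lines, each count was multiplied by a factor that made the geometric mean of the 100 most abundant human probes equal in all lines. The scaled value of miR-150 in Jurkat was 830. After subtraction of the threshold it was 801, or 0.886% of the summed values of that line, at rank 20 of 229 probes above background. A line at or below its threshold entered a ratio at the threshold, so the ratio is a lower bound. Jurkat had at least 26.6-fold more miR-150 than Meg-01, at least 22.8-fold more than U937 and at least 19.6-fold more than K562. The difference between the lymphoid lines was at least 11.5-fold, and this smaller bound goes with the higher scaled threshold of Raji, 72.4 against 42.3 in K562.

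miR-181a was above background in all 5 lines, and its high lines were Jurkat and the megakaryoblastic Meg-01. Its raw count was 2551 in Jurkat (2453 to 2652), 171 in Raji (146 to 199), 2417 in Meg-01 (2322 to 2515), 238 in U937 (209 to 270) and 64 in K562 (49.3 to 81.7). The scaled values were 2054 in Jurkat, 270 in Raji, 1792 in Meg-01, 248 in U937 and 78.3 in K562. Jurkat and Meg-01 formed a high pair and K562 was lowest. The order of Raji and U937 between them changed with the scaling. After subtraction miR-181a accounted for 2.24% of the summed value of all probes in Jurkat, 0.260% in Raji, 2.61% in Meg-01, 0.262% in U937 and 0.0329% in K562. Its rank within the line was 10 in Jurkat, 35 in Raji, 7 in Meg-01, 42 in U937 and 87 in K562.

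The order at the top of miR-181a was not settled. The scaled ratio of Jurkat over Meg-01 was 1.15 (95% interval 1.08 to 1.21), which is 0.20 on the log2 scale. Scaling to the summed human counts turned it to -0.17. The share of the summed values, a closely related measure and no separate evidence, was larger in Meg-01. The median log2 ratio of Jurkat over Meg-01 among the 142 probes above background in both was 0.16 with the main scaling and ran from -0.20 to 0.52 under the alternatives. Measured against that median, which removes the scaling, miR-181a differed between these lines by 0.03, at rank 65 of 142. Its level in Jurkat relative to Meg-01 was therefore close to that of the median probe.

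The gap between the high pair and the rest was large for miR-181a. Jurkat exceeded Raji 7.61-fold (6.52 to 8.94), U937 8.27-fold (7.24 to 9.49) and K562 26.2-fold (20.5 to 34.2). The ratio to Raji was 14.9 without scaling, 13.9 with scaling to the positive controls and 15.0 with the housekeeping probes. Meg-01 exceeded Raji 6.64-fold (5.68 to 7.80), U937 7.22-fold (6.31 to 8.28) and K562 22.9-fold (17.9 to 29.8). Without scaling the log2 ratio over K562 was 5.32 for Jurkat and 5.24 for Meg-01, against 4.71 and 4.52 with the main scaling. The log2 ratio of Raji over Meg-01 was -2.73, and it moved to -3.82 without scaling, -3.63 with the positive controls and -3.35 with the housekeeping probes. Relative to the median probe of each pair of lines, the log2 difference was 3.55 for Jurkat over Raji and 3.17 for Jurkat over U937, and in each miR-181a ranked 1, among 106 and 154 probes above background in both lines. For Jurkat over K562 it was 5.16, at rank 3 of 152, and for Meg-01 over K562 5.03, at rank 1 of 133. These differences do not depend on the scaling.

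Raji did not stand above all 3 non-lymphoid lines in miR-181a. The ratio of Raji over Meg-01 was 0.151 (0.128 to 0.176). Against U937 the ratio was 1.09 (0.888 to 1.33), whose interval includes 1. It turned to 0.718 without scaling, 0.558 with scaling to the positive controls and 0.531 with the housekeeping probes. Relative to the median of the 103 probes above background in both lines it was -0.48 on the log2 scale, at rank 75. Against K562 it was 3.45 (2.57 to 4.67), a log2 ratio of 1.79 that moved to 0.69 with the housekeeping probes. The B line thus had more miR-181a than 1 of the 3 other lines, K562, under every scaling tried. The interval covers counting error only, and each line had 1 sample.

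The joined probe for miR-181b and miR-181d was low. Its raw count was 158 in Jurkat (134 to 185), 46 in Raji (33.7 to 61.4), 132 in Meg-01 (110 to 157), 46 in U937 (33.7 to 61.4) and 35 in K562 (24.4 to 48.7). All 5 counts exceeded their thresholds, but only those of Meg-01 and Jurkat had an interval wholly above it. In Raji and K562 the count passed the threshold by less than 1. The scaled ratio of Jurkat over Meg-01 was 1.30 (1.03 to 1.65), and 0.21 log2 against the median probe, at rank 54 of 142. Jurkat over U937 gave 2.65 (1.90 to 3.77), and Jurkat over K562 2.97 (2.05 to 4.42). The ratio over K562, 1.57 on the log2 scale, moved to 2.17 without scaling. Subtracted values were 99.0 in Jurkat, 11.6 in U937 and 0.462 in K562. Raji over Meg-01 gave 0.742 (0.519 to 1.05), or -0.43 on the log2 scale, with an interval that includes 1. That log2 ratio moved to -1.52 without scaling, -1.33 with the positive controls, -1.05 with the housekeeping probes, -2.29 in the deposited signals and -8.28 after subtraction, which left 0.214 in Raji. Raji over U937 gave 1.51 (0.983 to 2.33) and Raji over K562 1.70 (1.07 to 2.71). Both turned below 1 with the housekeeping probes, to -0.44 and -0.33 on the log2 scale. The log2 ratio of Raji over U937 was also -0.36 with the positive controls, and it was 0 without scaling. Jurkat over Raji gave 1.75 (1.25 to 2.49), a log2 ratio of 0.81 that moved to 1.78 without scaling or with the housekeeping probes and to 1.68 with the positive controls. By value the joined probe was thus highest in the same pair of lines as miR-181a, but with the main scaling Meg-01 was not resolved from Raji. The gaps of the joined probe from this pair to the other lines were smaller than those of miR-181a before subtraction. After subtraction, which left 0.214 in Raji and 0.462 in K562, the gaps to Raji and K562 were larger than those of miR-181a. How much of each low count was background was not tested.

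miR-181c passed the threshold in Jurkat only. Its raw count was 65 in Jurkat (50.2 to 82.8), 20 in Raji (12.2 to 30.9), 40 in Meg-01 (28.6 to 54.5), 18 in U937 (10.7 to 28.4) and 23 in K562 (14.6 to 34.5). The count in Meg-01 lay just under its threshold of 42.1, which rests on a highest negative control of 44. With the highest control of each line left out, a choice made after the values were seen, the threshold of Meg-01 was 28.2 and miR-181c passed it. The scaled count in Jurkat, 52.3, was at least 1.68-fold that of Meg-01 (1.29 to 2.14), with Meg-01 entered at its threshold. The interval of the Meg-01 count ran past that threshold, so this bound leaves out the counting error of Meg-01. Against K562 it was at least 1.24-fold (0.954 to 1.58), a bound whose interval includes 1. The deposited signals, 48.8 in Jurkat and 19.6 in Meg-01, gave a log2 ratio of 1.31 with no scaling between lines. The constant subtracted there was 16.3 in Jurkat, below its negative control mean of 22.8, while that of Meg-01 equaled its mean. With the main scaling no bound above 1 could be given against Raji. Without scaling the Jurkat count of 65 lay above the Raji threshold of 45.9, so this bound depended on the scaling. miR-181c and miR-181a, printed above, are 1 edit apart, and the larger miR-181c counts were in the lines where miR-181a was high. Whether the miR-181c probe also read miR-181a was not tested.

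**Figure D1:**
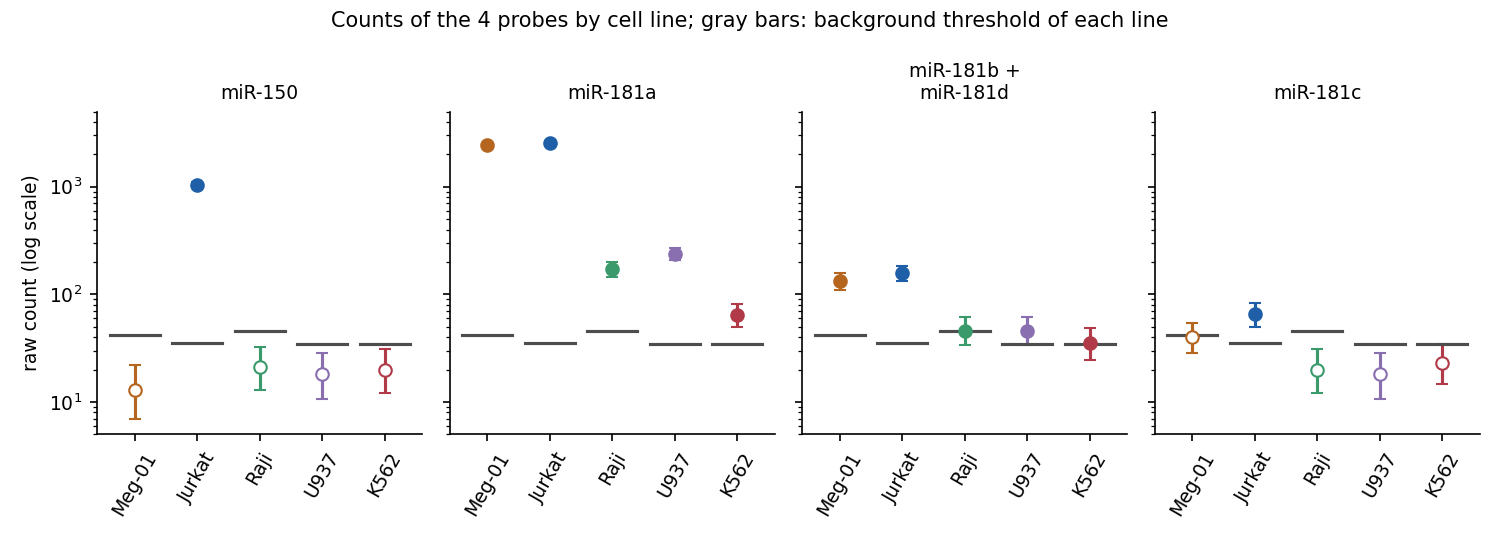
Raw counts (log scale) of the 4 probes in the 5 cell lines, 1 sample per line, with 95% Poisson intervals. Filled points lie above the background threshold of the line (gray bar) and open points at or below it; miR-150 rises above it in Jurkat alone, with 1030 counts, while miR-181a is above it in every line and highest in Jurkat and Meg-01, a pair whose order changes with the scaling.

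Of the 20 combinations of probe and line, 12 were above the threshold, beside 17.0% (Raji) to 35.0% (Jurkat) of all 654 human probes. Of the 12, 9 had the whole interval above it. The 9 were miR-150 in Jurkat, miR-181a in all 5 lines, the joined probe in Meg-01 and Jurkat, and miR-181c in Jurkat. The label lymphoid fits these values in part. miR-150 was measured in the T line and not in the B line. miR-181a was as high in a megakaryoblastic line as in the T line, and whether the B line lay above or below the monocytic line depended on the scaling.

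Within a line, the ratio of the miR-181a count to that of the joined probe cancels the scaling. Before subtraction it was 16.1 in Jurkat (13.7 to 19.1), 3.72 in Raji (2.67 to 5.27), 18.3 in Meg-01 (15.4 to 22.0), 5.17 in U937 (3.76 to 7.26) and 1.83 in K562 (1.19 to 2.85). The ratio in Jurkat relative to Meg-01 was 0.882 (0.690 to 1.13), which includes 1. No difference in the proportion of miR-181a to the joined probe was detectable between the lines of the high pair at this depth. After subtraction of the threshold the ratio was 20.5 in Jurkat, 922 in Raji, 26.4 in Meg-01, 18.3 in U937 and 77.8 in K562. Raji and K562, whose joined-probe counts passed the threshold by less than 1, thus moved from below the high pair to above it, and U937 stayed below it. In the deposited signals, which had a smaller constant subtracted, it was 17.9 in Jurkat, 6.46 in Raji, 21.5 in Meg-01, 8.64 in U937 and 3.37 in K562, so Raji and K562 stayed below the pair there.

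Against all human probes, miR-150 was among the few that stood above the non-lymphoid lines in Jurkat. Of 229 probes above background in Jurkat, 9 (3.93%) were at least 2-fold higher there than in each of Meg-01, U937 and K562. With subtracted values the count was 17 (7.42%). Of the 4 probes of interest, 1 passed, miR-150, with the largest lower bound. With bounds ranked at their value, the joined probe was at 19, miR-181c at 25 and miR-181a at 30, with ratios above the median of 0.730 over all 229. Medians over probes here and in the following comparisons enter a bound at its value and are themselves lower bounds. The next bounds were those of miR-363, at least 13.9-fold higher in Jurkat, and let-7b, at least 9.74-fold higher. All 3 are bounds over the same K562 threshold, so the order of the true ratios was not determined. miR-363 belongs to a relative of the miR-17-92 cluster on the X chromosome, and let-7b to the let-7 family.

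In Raji the miR-181 probes fell in the lower part of the list. Of 111 probes above background in Raji, 11 (9.91%) were at least 2-fold higher than in each of the same 3 lines. Of the probes of interest 2 could be compared and 0 passed, and miR-150 and miR-181c were not above background in Raji. The joined probe ranked 77 and miR-181a 108 of 111, and the median ratio over all 111 was 1.12. The largest Raji ratios belonged to miR-29b, 3.16-fold, miR-296-5p, at least 2.80-fold, and miR-30a, 2.56-fold. The count of 11 depended on the scaling and was 0 with the positive controls or the housekeeping probes, while miR-181a in Raji stayed below Meg-01 under every scaling.

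**Figure D2:**
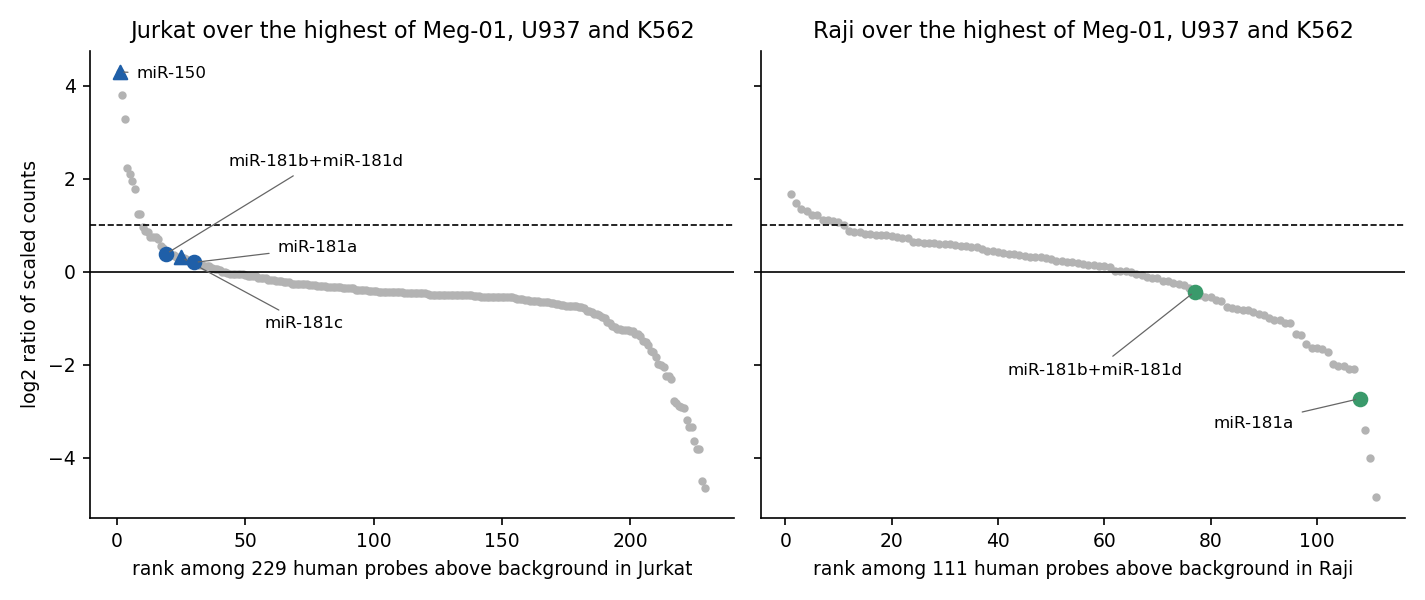
Log2 ratio of scaled counts in Jurkat (left, 229 probes) and Raji (right, 111 probes) over the highest of Meg-01, U937 and K562, ranked from high to low, 1 sample per line. Gray points are human probes, colored points the probes of interest (triangles are lower bounds, as are some gray points), and the dashed line marks 2-fold; miR-150 has the largest lower bound in Jurkat and miR-181a is near the bottom in Raji, at rank 108.

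The lymphoid lines differed from each other in both miR-150 and miR-181a. Of 229 probes above background in Jurkat, 16 (6.99%) were at least 2-fold lower in Raji. This count was 49 (21.4%) without scaling or with the housekeeping probes, 43 (18.8%) with the positive controls and 33 (14.4%) after subtraction. Of the 4 probes of interest 2 passed with the main setting, miR-150 and miR-181a, with ratios of at least 11.5 and of 7.61 against a median of at least 0.534 over all 229. The joined probe passed as well without scaling, with scaling to the positive controls or housekeeping probes, and with subtracted values. miR-181c did not pass under any of the settings tried.

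After the miR-181a values were seen, probes were counted that were at least 2-fold higher in both Jurkat and Meg-01 than in each of Raji, U937 and K562. Of 142 probes above background in both Jurkat and Meg-01, 1 (0.704%) passed, and it was miR-181a, with a lowest ratio of 6.64. Without scaling 3 (2.11%) passed and after subtraction 2 (1.41%), and in both cases the joined probe was among them. With the main scaling the joined probe ranked 3 with a lowest ratio of 1.35, and the median over the 142 was 0.440. These counts describe the pattern by which they were defined and are no independent support for it.

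Likeness of profile was measured as the root mean square difference of log2 scaled counts over the 5 lines, each probe centered on its own mean and entered at the threshold where it was not above it. Among the 304 other human probes that were above background in at least 1 line, miR-363 was nearest to miR-150, with a difference of 0.197. Its raw counts were 732 in Jurkat, 30 in Raji, 24 in Meg-01, 24 in U937 and 31 in K562, so it too was above background in Jurkat alone. let-7b followed at 0.403, with 512 counts in Jurkat and 15 to 45 in the others. miR-342-3p came next at 0.842, with 652 counts in Jurkat and 70 to 127 elsewhere, all above background. Where 2 probes are both at the threshold, as miR-150 and miR-363 are in 4 lines, their difference there carries no information on their levels.

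miR-181a was above background in every line. Its differences therefore cannot be compared with those of miR-150, which rest on threshold values outside Jurkat. With the probes of interest left out, the closest was miR-29c at 1.14, followed by let-7a at 1.38 and miR-324-5p at 1.39. miR-29c had 1989 counts in Jurkat, 242 in Raji, 507 in Meg-01, 301 in U937 and 130 in K562, so it was high in Jurkat without the matching level in Meg-01. The joined miR-181 probe differed from miR-181a by 1.27 and miR-150 differed from it by 1.77.

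**Figure D3:**
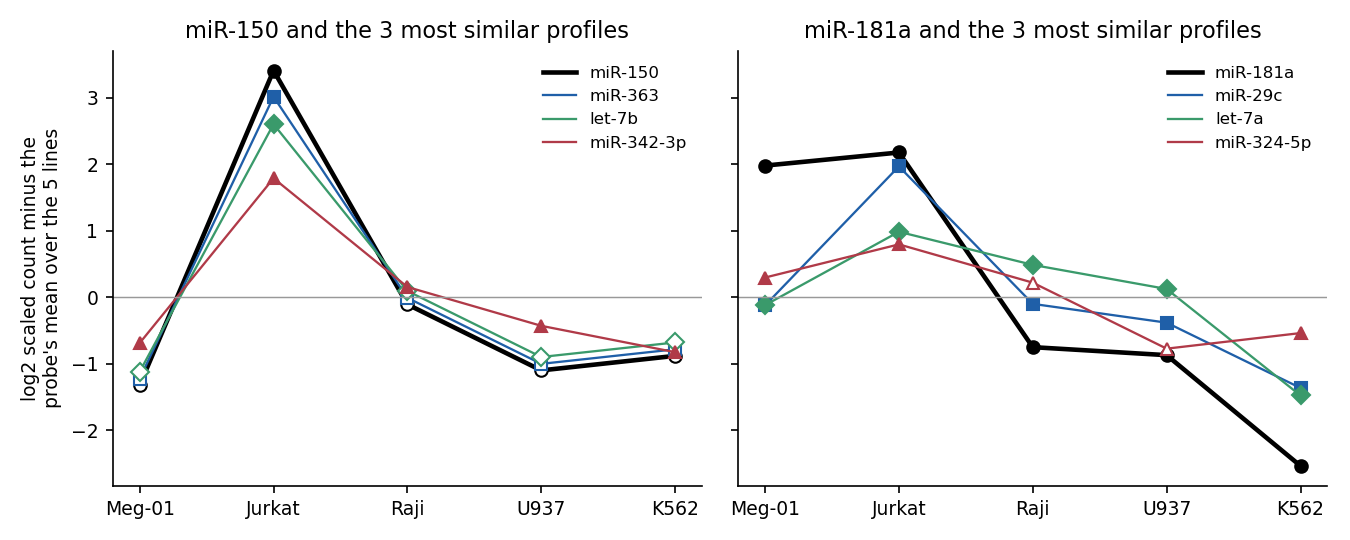
Profiles of miR-150 (left) and miR-181a (right) with the 3 most similar other probes, as log2 scaled count minus the mean of the probe over the 5 lines. Open points were at or below the background threshold and are drawn at it; the Jurkat peak of miR-150 is shared by miR-363 and let-7b, and no probe shown shares the height of miR-181a in Meg-01.

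Other miRNAs with known roles in T or B cells were set beside these probes, and 12 of 13 listed had a probe of that name, alone or joined. Of those, 10 were above background in Jurkat, 8 in Raji, 8 in Meg-01, 8 in U937 and 7 in K562. Among these, miR-155, miR-185 and miR-34a in Jurkat, miR-146a in Meg-01 and miR-214 in U937 had an interval that included the threshold. Of all 654 human probes, 35.0% were above background in Jurkat, 17.0% in Raji, 27.2% in Meg-01, 28.3% in U937 and 27.5% in K562. These shares rest on few controls, and without the highest negative control of each line the number above background rose from 111 to 224 in Raji, from 178 to 322 in Meg-01 and from 229 to 254 in Jurkat. Of 10 compared in Jurkat, 1 was at least 2-fold higher than in each non-lymphoid line, miR-342-3p at 4.66-fold (3.80 to 5.77), beside 3.93% of all probes, and the list median was 0.418 against 0.730 for all probes. Of 8 compared in Raji, 1 passed, miR-146a at 2.12-fold (1.71 to 2.64), beside 9.91% of all probes, and the list median was 0.733 against 1.12. miR-146a did not reach 2-fold without scaling, at 1.40, nor with scaling to the summed counts, at 1.97, the positive controls, at 1.09, or the housekeeping probes, at 1.04. miR-146a, a regulator of NF-kB signaling, had 53 counts in Jurkat, 206 in Raji, 46 in Meg-01, 147 in U937 and 34 in K562. miR-155, which acts in activated lymphocytes and germinal centers, had 36 counts in Jurkat, 254 in Raji, 121 in Meg-01, 253 in U937 and 32 in K562. Raji over U937 was 1.52 for miR-155 (1.27 to 1.82), but the raw counts were nearly equal and the ratio was 0.780 with the positive controls and 0.742 with the housekeeping probes, so no order of these lines was settled. Both miRNAs were higher in the B line than in the T line, the reverse of miR-150 and miR-181a.

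Between the lymphoid lines, 1 of 10 listed lymphocyte miRNAs was at least 2-fold lower in Raji, miR-342-3p, beside 6.99% of all probes. Without scaling 2 of 10 passed, with miR-148a added, beside 21.4% of all probes. The list median of Jurkat over Raji was at least 0.617, against at least 0.534 for all probes. The rest of the list was spread over the lines. miR-92a and miR-19b of the miR-17-92 cluster were abundant everywhere, with 8533 to 22639 and 2958 to 6805 counts, and highest in K562 after scaling. miR-28-5p and miR-326 were below background in all 5 lines.

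The miRNAs of other blood lineages served as a check of the lines, and 7 of 8 listed had a probe of that name. The number above background was 4 in Jurkat, 2 in Raji, 6 in Meg-01, 4 in U937 and 6 in K562. The shares of all human probes, in the same order, were 35.0%, 17.0%, 27.2%, 28.3% and 27.5%. The summed scaled and subtracted values of the listed miRNAs were 707 in Jurkat, 88.8 in Raji, 4636 in Meg-01, 2976 in U937 and 4343 in K562. The myeloid miR-223 was the most abundant of them by count in each line but Raji, with 732 counts in Jurkat, 62 in Raji, 3269 in Meg-01, 2682 in U937 and 1684 in K562. The erythroid miR-144 had 981 counts in Meg-01 and 216 in K562, and miR-451 had 129 and 59, with both below background in Jurkat, Raji and U937. miR-126, a miRNA of progenitors and megakaryocytes, had 1954 counts in Meg-01 and 1482 in K562, 96 in U937 and 99 in Jurkat, and it was below background in Raji. miR-130a was below background in all 5 lines. The myeloid miR-424 had 114 counts in Jurkat, 81 in Meg-01, 129 in U937 and 79 in K562, and was below background in Raji. miR-10a, listed with progenitors and megakaryocytes, was above background in all 5 lines. It had 73 counts in Jurkat, 86 in Raji, 91 in Meg-01, 85 in U937 and 239 in K562. Neither miR-424 nor miR-10a was limited to lines of its listed lineage.

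None of the 4 compared in Jurkat and the 2 compared in Raji was 2-fold higher than in each non-lymphoid line, with list medians of 0.206 and 0.250 against 0.730 and 1.12 for all probes. miR-223 was the 1 of 4 that was at least 2-fold lower in Raji than in Jurkat, beside 6.99% of all probes, with a list median of at least 1.18 against at least 0.534. Without scaling, and with the positive controls or housekeeping probes, 3 of 4 passed, with miR-424 and miR-126 added. The share of all probes was then 21.4% without scaling or with the housekeeping probes and 18.8% with the positive controls. Jurkat thus held the myeloid miR-223 well above its threshold of 35.0. The part of these lineage miRNAs in the levels of miR-150 and the miR-181 family was not tested.

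**Figure D4:**
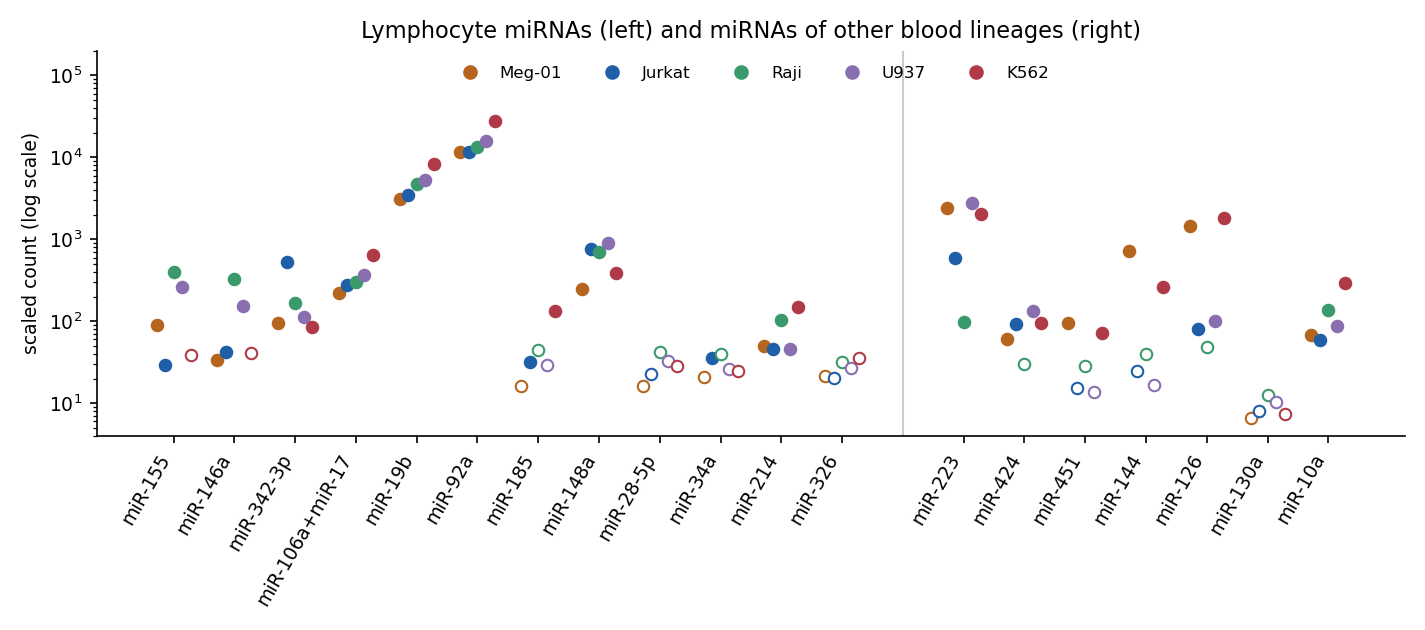
Scaled counts (log scale) of the listed lymphocyte miRNAs (left of the line) and miRNAs of other blood lineages (right of it) in the 5 cell lines, 1 sample per line. Filled points are above the background threshold of the line and open points at or below it; miR-342-3p is highest in Jurkat, miR-146a in Raji with a lead over U937 that shrinks to 1.04-fold under another scaling, and miR-144 and miR-126 are high in Meg-01 and K562.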

How the data were processed

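The authors deposited raw counts of every probe per line, not normalized, and a table of background-subtracted signals for the human probes. A deposited signal is the raw count less a constant of its line, set to 0 if negative, with no scaling between lines. The methods name 2 kit versions for the study, and which was used for these samples was not settled here. Here raw counts were scaled by the geometric mean over the 100 probes with the highest mean count. The threshold was the mean plus 2 SD of 8 negative controls, as the study's methods describe. Counts have exact Poisson intervals and ratios conditional exact binomial ones. No test was run. Named probes were those chosen by name, the 3 nearest profiles of miR-150 and miR-181a, the 3 largest ratios of Jurkat and of Raji, and both lists. The probes and lists were chosen with earlier results of these data known. Alternatives changed the scaling, threshold, subtraction or table. Python 3.11.15, NumPy 2.4.6, SciPy 1.17.1 and Matplotlib 3.10.9 were used, and the scripts were tested on simulated data.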

Additional observations from a re-analysis of the deposited data

How the results depend on the processing

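Values are log2 ratios over the highest non-lymphoid line, or numbers of probes. miR-150 passed 2-fold in Jurkat, and miR-181a did not in Raji, under every alternative that gave a value. Without scaling, miR-150 in Jurkat was at least 4.61, miR-181a 0.078 in Jurkat and -3.82 in Raji, and the joined probe -1.52 in Raji; 1 probe passed in Raji, 49 were lower in Raji than Jurkat, and 3 were higher in Jurkat and Meg-01. Scaling to summed counts gave -0.17 for miR-181a in Jurkat, against 0.20, and -3.11 in Raji, and 0.014 for the joined probe in Jurkat. Positive controls gave at least 4.42 for miR-150, -3.63 for miR-181a and -1.33 for the joined probe in Raji, 0 probes in Raji and 43 lower in Raji. Housekeeping probes gave at least 4.17 for miR-150, 0.55 for miR-181a and 0.73 for the joined probe in Jurkat, -3.35 and -1.05 for them in Raji, 0 probes in Raji and 49 lower in Raji. A threshold at the mean of the negative controls gave at least 5.07 for miR-150, 0.82 for miR-181c and 24 of 405 probes in Raji (5.93%, against 9.91% of 111). Leaving out the highest negative control of each line, chosen after seeing the data, gave at least 4.59 for miR-150. Subtracted values gave -3.16 for miR-181a and -8.28 for the joined probe in Raji, 17 probes in Jurkat, 33 lower in Raji and 2 higher in Jurkat and Meg-01. The -8.28 arises because 0.214 remained of the Raji value after subtraction. Subtraction gave -0.81 for miR-181c, since its subtracted 24.1 in Jurkat was set against the K562 threshold of 42.3, so no fold follows. Deposited signals gave 0.081 for miR-181a in Jurkat, -4.02 for miR-181a and -2.29 for the joined probe in Raji, and 1.31 for miR-181c. The miR-150 bounds set its Jurkat count over the threshold of another line, so they moved with the scaling and threshold chosen. The cause of the other changes was not tested. In 64 further values the result stayed within its interval or within 1.5 times its count. No value came from the deposited signals for miR-150, listed at 0 outside Jurkat, nor from the threshold at the highest negative control for the joined probe in Raji, which lay below it. The comparison of Jurkat and Meg-01 with the rest and its alternatives, and the other scalings of miR-181a, miR-146a and miR-155 between named lines, and the list counts by scaling, were chosen after seeing the data. No paired analysis was possible because each line has 1 sample.

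Depth limits the low probes most. Counts of 13 to 65 have wide intervals and lie near the negative controls, so the joined probe outside Meg-01 and Jurkat, and miR-181c in any line, have no precise level. The Raji threshold rests on a highest negative control of 47 and falls from 45.9 to 32.7 without it. Variation between cultures, extractions and lanes was not measured.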

Other observations

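The constant subtracted from each line in the deposited table was 16.3 in Jurkat, 23.1 in Raji, 20.4 in Meg-01, 20.9 in U937 and 22.8 in K562. The mean of the negative controls was 22.8 in Jurkat, 23.1 in Raji, 20.4 in Meg-01, 20.9 in U937 and 20.3 in K562. The constant of K562 thus equals the negative control mean of Jurkat, and that of Jurkat matches the mean of no line. For miR-150 in Jurkat the deposited signal was 1014, and for miR-181c it was 48.8 in Jurkat, 19.6 in Meg-01 and 0.25 in K562.

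Among the listed lymphocyte miRNAs, miR-148a had 940 counts in Jurkat, 449 in Raji, 333 in Meg-01, 872 in U937 and 317 in K562. miR-185 had 109 counts in K562 and 40 in Jurkat and was below background in the other lines. miR-214 was above background in all 5 lines, with 44 to 122 counts. miR-34a passed the threshold in Jurkat alone, with 44 counts (32.0 to 59.1) against a threshold of 35.0, which the interval includes.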
